A study of Arabidopsis thaliana with 18 samples.

Results

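A set of 9 genes that act upstream of the CBF transcription factors was followed across the ecotypes and temperatures of the series. They were taken by locus from the deposited table, and all 9 of 9 were found among its 33557 genes. They are the bHLH genes ICE1 (AT3G26744) and ICE2 (AT1G12860), the calmodulin-binding factor genes CAMTA1 (AT5G09410), CAMTA2 (AT5G64220) and CAMTA3 (AT2G22300), the protein kinase gene OST1 (AT4G33950), the ubiquitin ligase gene HOS1 (AT2G39810), and the repressor genes MYB15 (AT3G23250) and EIN3 (AT3G20770).

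CBF proteins switch on cold-regulated genes, and their own transcription is set by proteins that mostly exist before the cold arrives. ICE1 is a bHLH activator that binds CBF promoters and is controlled largely after translation. OST1 phosphorylates and stabilises it, and HOS1 marks it for breakdown. CAMTA proteins sense calcium through calmodulin and activate CBF genes through CGCG-containing elements, while MYB15 and the ethylene-response factor EIN3 bind CBF promoters and repress them. Transcript levels therefore describe only part of how these regulators work.

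RNA of whole aerial parts of Arabidopsis thaliana was sequenced in 18 libraries, 3 for each of 6 groups. The plants were of 2 ecotypes, 1 Italian (named IT) and 1 Swedish (named SW). Each ecotype gave a warm group kept at 22 °C and cold groups held for 1 or 2 weeks at 4 °C. All plants had grown for 18 days at 22 °C under 100 to 120 µmol m-2 s-1 in a 12 h photoperiod, the cold was given under about 35 µmol m-2 s-1, and all tissue was taken at ZT4, 4 h after lights on. Cold, dimmer light and greater age came together in each cold group and cannot be told apart. The labels name no mutation, transgene or other agent in any group.

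The table held 1 FPKM value per gene and group (fragments per transcript length, scaled to the mapped fragments), made by the authors from the 3 libraries. No value per library was used here, so nothing below could be held against the spread between libraries, and no p-value, SD or test is given. The depth is unknown. Groups were set against each other by the log2 of the ratio of FPKM + 1, and 2-fold on that scale was the limit for counting. Of all genes, 19639 reached 1 FPKM in at least 1 group, among them all 9 regulators. Because the tissue was bulk, fewer cells of a type and less RNA per cell cannot be told apart. As markers of the tissue, LHCB3 lay between 2534 and 7323 FPKM and CA1 between 643 and 2406. Both were lower in the cold in each ecotype. PORB, of the same leaf list, stood higher in the cold, at 553, 814 and 632 FPKM in IT and 593, 1466 and 1656 in SW. RBCS1A was listed at 0 in every group. The root markers IRT1, EXPA7 and COBL9 stayed at or below 0.0746 FPKM. The other gene of the root list, PYK10, did not: it stood at 35.1, 8.997 and 1.76 FPKM in IT and 26.9, 8.76 and 1.22 in SW, lower at each time in the cold, and its part in the cold comparisons was not tested. The summed level of 4 floral markers was 0.955 FPKM in IT warm, 0.738 in IT at 1 week and 6.52 in IT at 2 weeks, and between 0.271 and 0.292 in the 3 SW groups; its part in the results at 2 weeks was not tested.

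The promoter of CBF2, the CBF gene whose window holds matches to the CAMTA core and the E-box, and the promoters of the 2 regulators whose transcript differed most are shown first. Each is the 250 bases before the annotated gene start in TAIR10.1, from the Columbia reference and not from IT or SW plants, read 5′ to 3′ on the gene's own strand. Capitals mark CGCG (the CAMTA core), CANNTG (the E-box read by bHLH proteins such as ICE1), CCGAC (the element read by CBF proteins themselves) and AAATATCT (a core of the clock's evening element), searched on both strands.
CBF2, chr4:13016236-13016485, minus strand: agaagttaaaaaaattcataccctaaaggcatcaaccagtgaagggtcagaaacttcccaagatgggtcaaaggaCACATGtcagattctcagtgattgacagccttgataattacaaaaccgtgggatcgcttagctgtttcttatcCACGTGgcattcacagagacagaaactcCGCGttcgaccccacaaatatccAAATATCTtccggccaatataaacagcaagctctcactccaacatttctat
OST1, chr4:16271495-16271744, plus strand: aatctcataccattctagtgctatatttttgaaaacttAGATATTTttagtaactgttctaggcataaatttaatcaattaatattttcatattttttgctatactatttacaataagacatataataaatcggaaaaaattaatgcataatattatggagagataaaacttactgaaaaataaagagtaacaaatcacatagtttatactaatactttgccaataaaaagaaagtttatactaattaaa
MYB15, chr3:8308959-8309208, plus strand: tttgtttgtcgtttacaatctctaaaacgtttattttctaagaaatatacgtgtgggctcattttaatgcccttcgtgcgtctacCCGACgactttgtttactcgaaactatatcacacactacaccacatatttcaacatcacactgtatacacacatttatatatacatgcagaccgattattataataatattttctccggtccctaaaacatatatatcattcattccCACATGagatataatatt

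The CBF2 window held 1 CGCG match, which lies within the longer CAMTA site CCGCGT, and 2 CANNTG matches, of which 1 is the G-box CACGTG. The windows of CBF1 and CBF3 held 0 matches to CGCG and 0 to CANNTG. That of CBF4 held 0 matches to CGCG and 2 to CANNTG, of which 1 is CACGTG. CBF1, CBF2 and CBF3 held 1 AAATATCT match each. The annotated transcripts of CBF1 and CBF3 were longer, at 1217 and 1391 bases, than that of CBF2, at 986. Their proteins have 213, 216 and 216 residues, in the same order. The windows may thus lie at unlike distances from the coding starts, which was not tested. Bases outside the windows were not searched, so a count of 0 holds for the window only. Of 27444 protein-coding promoters of the same length, 10.1% held CGCG, 1.76% held CCGCGT, 55.3% held CANNTG and 6.49% held CACGTG. The MYB15 window held 1 CANNTG match and 1 CCGAC match, the latter found in 12.0% of promoters. The OST1 window held 1 AAATATCT match on the opposite strand, found in 4.79% of promoters. EIN3 held 2 CCGCGT matches, each with its flanks printed here because CAMTA genes and EIN3 belong to the same set of regulators, with the match in capitals.
EIN3, chr3:7263589-7263610, minus strand: ataaaactCCGCGTaagaaaca
EIN3, chr3:7263563-7263584, minus strand: attacataCCGCGTaaaataaa
A match is only a run of letters in the reference; no binding was measured.

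**Figure D1:**
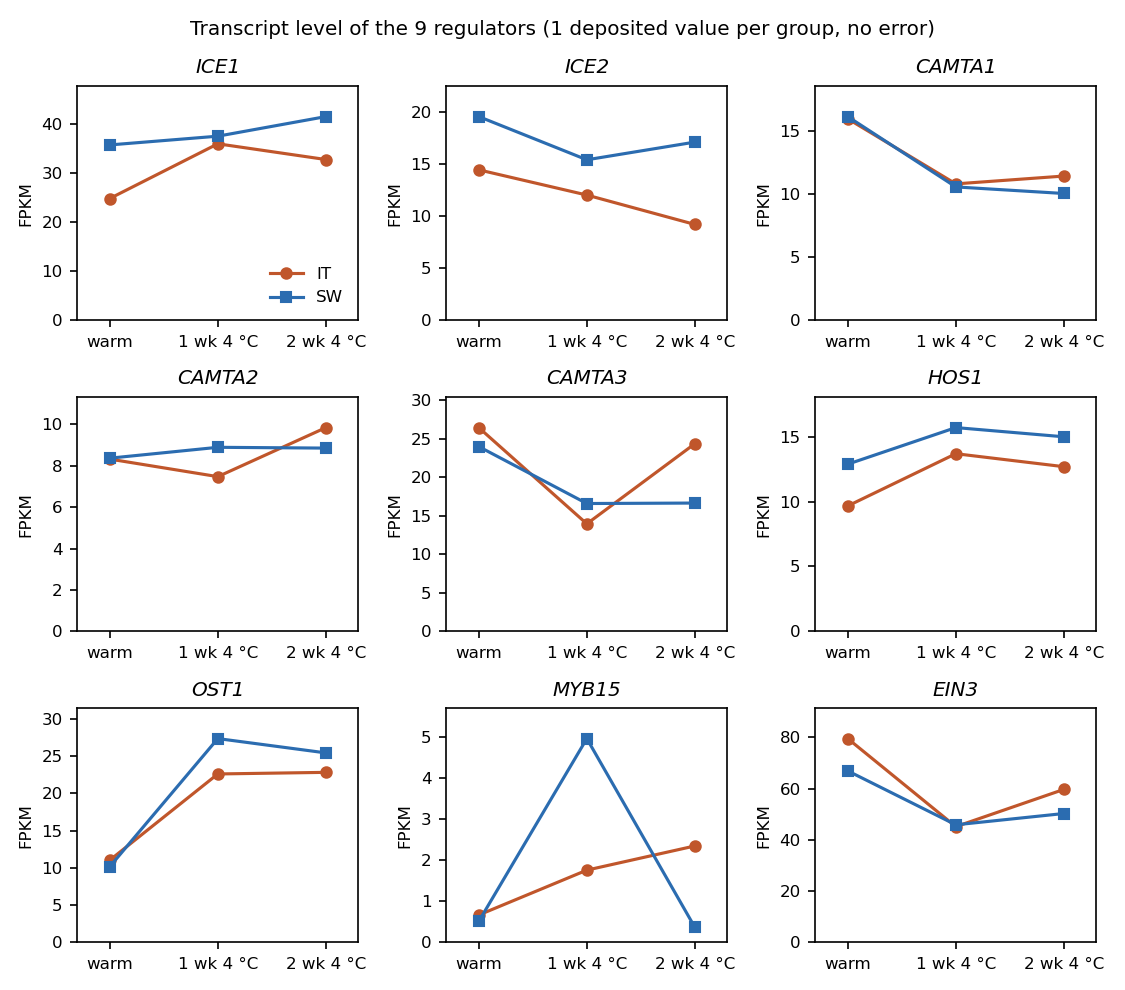
FPKM of each regulator (y axis, from 0) in warm plants and after 1 and 2 weeks at 4 °C (x axis), for IT (circles) and SW (squares). Each point is the 1 deposited value of a group, without error. OST1 stands higher in the 4 cold groups than in both warm groups, and MYB15 peaks at 4.97 FPKM in SW at 1 week.

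On the deposited values, OST1 and MYB15 were the only regulators past 2-fold of their warm level. Within 2-fold, CAMTA3 and EIN3 in IT at 1 week had log2 ratios of -0.88 and -0.80. These were larger in size than 77.1% and 73.7% of all genes. After 1 week in IT, 0 of 9 regulators were past 2-fold in either direction, against 17.9% of all genes (10.0% higher and 7.91% lower). After 2 weeks in IT 1 of 9 was (MYB15, higher), against 13.5% of all genes (7.03% higher and 6.43% lower). In SW 2 of 9 were after 1 week (OST1 and MYB15, both higher), against 14.0% (7.81% higher and 6.20% lower). After 2 weeks in SW 1 of 9 was (OST1, higher), against 14.0% (6.54% higher and 7.47% lower). With only 9 genes, whether these counts differ from the background shares cannot be judged. The median log2 ratio of the 9 was -0.14, 0.22, 0.07 and -0.15 in these 4 comparisons, beside -0.0023, 0.04, 0.03 and 0.01 for all genes. Of the 36 ratios of cold to warm, 4 were past 2-fold, all on the higher side. Under scaling to reference genes MYB15 in SW at 1 week was higher (1.75), and CAMTA3 in IT at 1 week and CAMTA1 and CAMTA3 in SW at 2 weeks were lower. That scaling used the median level of 12 genes (PP2AA3, UBC9, SAND, TIP41, YLS8, UBC21, RHIP1, FBOX, ACT2, UBQ10, EF1A and PTB1). On the deposited values these were themselves mostly higher in the cold. Their median log2 ratio was 0.21 and 0.32 in IT and 0.37 and 0.46 in SW, with 9 of 12 above 0 each time. PTB1 was past 2-fold in all 4 comparisons and EF1A in IT at 1 week. The scaling moved the kept genes as a whole to the lower side. It gave 1479 higher and 2248 lower in IT at 1 week and 759 and 2146 at 2 weeks. In SW it gave 796 and 2696 at 1 week and 520 and 3378 at 2 weeks. The 1-week and 2-week comparisons of an ecotype share its warm value. Compared per length of transcript, EIN3 was the most abundant of the 9 in every group and MYB15 the least.

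ICE1 encodes the main bHLH activator of CBF3 and, under the name SCREAM, also a factor of stomatal development. It stood at 24.8 FPKM in IT warm, 36.0 in IT at 1 week and 32.8 in IT at 2 weeks. In SW it stood at 35.7 FPKM warm, 37.5 at 1 week and 41.5 at 2 weeks. The IT warm value was the lowest of the 6 and the other 5 lay within a narrow band. The log2 ratio of cold to warm was 0.52 and 0.39 in IT, at 1 and 2 weeks, against 0.07 and 0.21 in SW. The SW ratios changed sign when groups were scaled to reference genes (-0.36 and -0.32).

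ICE2, the close relative of ICE1 (also SCREAM 2), went the other way. Its level was 14.5 FPKM in IT warm, 12.0 at 1 week and 9.22 at 2 weeks, and in SW 19.6, 15.4 and 17.1. The IT value was lower at each later time, whereas SW at 2 weeks lay above SW at 1 week. All 3 SW values lay above all 3 IT values. The ratio of SW to IT was largest at 2 weeks (log2 0.83), still within 2-fold. Of the summed ICE1 and ICE2 level, ICE1 made up 63.2% in IT warm and 78.0% in IT at 2 weeks, and 64.6% and 70.8% in SW.

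ICE1, ICE2 and HOS1 were the 3 regulators with SW above IT in all 3 conditions, an order that 24.1% of all genes showed. None of the 9 had IT above SW throughout, which 21.9% of all genes showed. For HOS1 this order did not hold under reference-gene scaling, which put SW below IT at 1 week (-0.03) and level with it at 2 weeks, nor for ICE1 at 1 week (-0.16).

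HOS1 is the RING-type ubiquitin ligase that targets ICE1. It measured 9.66 FPKM in IT warm, 13.7 at 1 week and 12.7 at 2 weeks, and 12.9, 15.7 and 14.98 in SW. Within each ecotype both cold values exceeded the warm value, by log2 0.46 and 0.36 in IT and 0.27 and 0.20 in SW. These SW ratios changed sign under reference-gene scaling (-0.14 and -0.31). The 250-base window of HOS1 held 3 CCGAC matches and 2 CGCG matches.

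**Figure D2:**
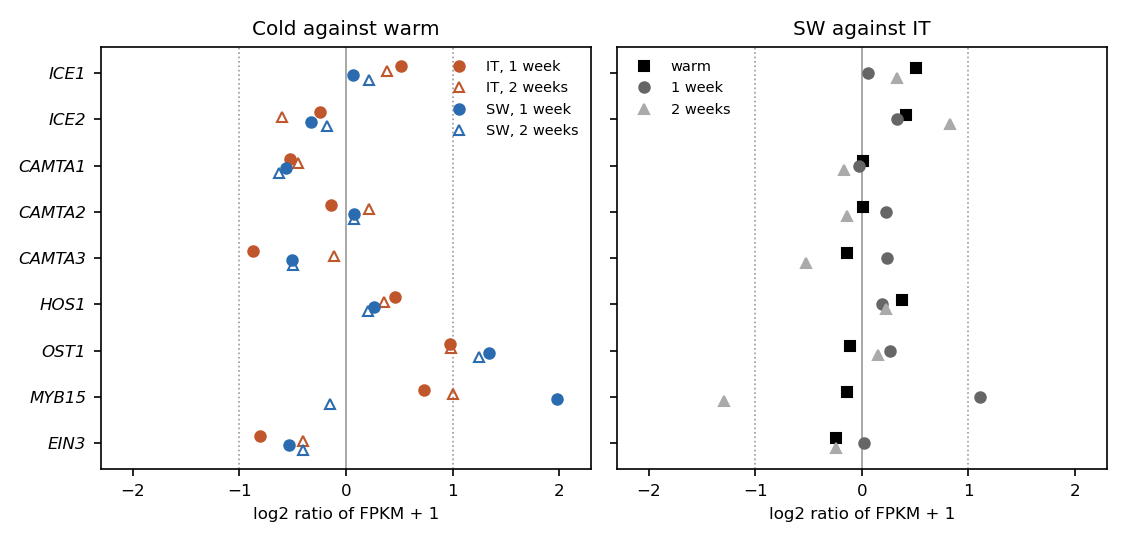
Log2 ratio of FPKM + 1 (x axis) for each regulator (y axis), cold against warm on the left and SW against IT on the right. Each symbol is the ratio of 2 deposited group values, without error, and dotted lines mark 2-fold. Only OST1 and MYB15 reach or pass the dotted lines.

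The CAMTA genes, whose proteins act as activators of CBF, were lower or level in the cold. CAMTA1 stood at 15.9 FPKM in IT warm and 16.1 in SW warm, and between 10.0 and 11.4 in the 4 cold groups. Every cold value lay below both warm values. The log2 ratios ranged from -0.63 to -0.45, and reference-gene scaling took the lowest, SW at 2 weeks, to -1.14. CAMTA2 was level throughout, from 7.47 to 9.84 FPKM over all 6 groups.

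CAMTA3 also represses salicylic acid defence in warm plants. In IT it measured 26.5 FPKM warm, 14.0 at 1 week and 24.4 at 2 weeks. In SW it measured 24.0 FPKM warm, 16.6 at 1 week and 16.7 at 2 weeks. IT was thus back near its warm value at 2 weeks, and SW was not. SW against IT at 2 weeks the log2 ratio was -0.52, within 2-fold and larger in size than 73.3% of all genes, and the difference of the responses was -0.39 (69.8%). The IT value at 2 weeks was 0.76 above that at 1 week on the log2 scale, larger in size than 92.6% of all genes in that comparison, while the same ratio in SW was 0.005. Reference-gene scaling put CAMTA3 past 2-fold below warm in IT at 1 week (-1.07) and in SW at 2 weeks (-1.02). The summed level of CAMTA1, CAMTA2 and CAMTA3 was 50.7 FPKM in IT warm, 32.2 at 1 week and 45.6 at 2 weeks, and 48.5, 36.0 and 35.5 in SW. CAMTA3 overlaps AT2G22310 on the opposite strand by 69 bases, and that gene stood between 6.19 and 8.02 FPKM.

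EIN3, the transcription factor at the end of the ethylene pathway and a repressor of CBF genes, was lower in the cold. Its level was 79.6 FPKM in IT warm, 45.2 at 1 week and 59.7 at 2 weeks. In SW the values were 67.0, 45.9 and 50.3 FPKM. All 4 cold values lay below both warm values. The log2 ratios were -0.80 and -0.41 in IT and -0.54 and -0.41 in SW, all within 2-fold. Quantile normalization took the IT ratio at 1 week to -1.02. Its relative EIL1 stood between 28.5 and 37.6 FPKM in the 6 groups. In the promoter window of EIN3 stand the CCGCGT runs printed above.

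CAMTA1, EIN3 and OST1 were the 3 regulators whose cold and warm values did not overlap, an order that 48.7% of all genes showed in one direction or the other. For all cold groups above both warm groups the share was 26.3%, and for all below 22.4%. The count of 3 in 9 does not stand above that share.

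OST1 is the SnRK2 kinase that abscisic acid and cold activate, and it was named for its part in closing stomata. It stood at 11.0 FPKM in IT warm, 22.6 at 1 week and 22.8 at 2 weeks. In SW it stood at 10.2 FPKM warm, 27.4 at 1 week and 25.4 at 2 weeks. The 4 cold values were all about 2-fold or more above both warm values, and the ecotypes were close to each other in each condition. The log2 ratio of cold to warm was 0.97 and 0.99 in IT, just under 2-fold on this scale, and 1.35 and 1.24 in SW. In SW these were larger in size than 92.5% and 91.4% of all genes. The difference of the responses, SW minus IT, was 0.37 at 1 week and 0.26 at 2 weeks, larger than 59.6% and 54.2% of all genes. Reference-gene scaling took the SW ratios to 0.94 and 0.73, within 2-fold, and kept their sign.

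Markers of guard cells, where OST1 is best known, did not stand higher in the cold as a sum, except in SW at 2 weeks. The summed level of 5 guard cell genes was 101 FPKM in IT warm, 76.2 at 1 week and 98.5 at 2 weeks, and 84.9, 55.0 and 91.1 in SW. AT1G22690 gave most of each sum. It stood at 64.4 FPKM in SW warm and 76.5 in SW at 2 weeks, where MYB60, KAT1, SLAC1 and HT1 were all below warm. Of these other markers, MYB60 lay between 7.84 and 13.7 FPKM, KAT1 between 3.397 and 7.45 and SLAC1 between 1.98 and 5.08. HT1 stood at 2.58, 1.39 and 1.14 FPKM in IT and 0.93, 0.60 and 0.42 in SW, lower in every cold group. The part of guard cells in the OST1 ratios was not tested.

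The kinases closest to OST1 in function, SNRK2.2 and SNRK2.3, did not follow it. SNRK2.3 measured 22.8 FPKM in IT warm, 4.50 at 1 week and 5.27 at 2 weeks, and 13.7, 1.66 and 2.17 in SW. In both ecotypes it was lower in the cold, with log2 ratios of -2.12 and -1.92 in IT and -2.46 and -2.21 in SW. SNRK2.2 stood at 44.6 FPKM in IT warm, 21.1 at 1 week and 25.7 at 2 weeks, against 35.9, 33.6 and 41.4 in SW. It was lower in cold IT plants and level in cold SW plants, and the SW minus IT difference of its log2 response was 0.96 at 1 week and 0.97 at 2 weeks. Of the summed level of the 3 genes, OST1 made up 14.1% in IT warm, 46.9% at 1 week and 42.4% at 2 weeks, and 17.0%, 43.7% and 36.9% in SW. The grouping of these 3 kinases, which are known to be activated by abscisic acid, was made after their values were seen. As close relatives, SNRK2.2 and SNRK2.3 may share reads, which could not be traced here.

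**Figure D3:**
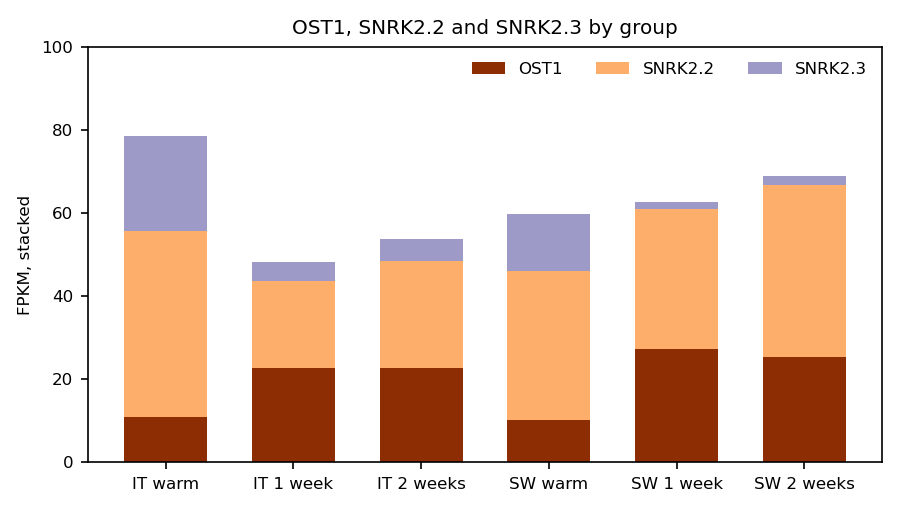
FPKM of OST1, SNRK2.2 and SNRK2.3 stacked (y axis, from 0) in the 6 groups (x axis), 1 deposited value per gene and group, without error. The OST1 part grows from 14.1% to 46.9% of the sum between IT warm and IT at 1 week, and from 17.0% to 43.7% in SW.

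Over the whole SnRK2 list beside OST1, 9 genes could be compared. In IT at 1 week 1 was 2-fold higher and 3 were lower, against 10.0% and 7.91% of all genes, and at 2 weeks 1 was higher and 1 lower, against 7.03% and 6.43%. In SW 0 were higher and 1 lower at each time, against 7.81% and 6.20% at 1 week and 6.54% and 7.47% at 2 weeks. The gene on the higher side in IT was SNRK2.8, at 19.9 FPKM warm, 46.0 at 1 week and 54.0 at 2 weeks, against 15.3, 21.6 and 25.4 in SW.

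MYB15, the R2R3 MYB repressor of CBF genes, was the lowest of the 9 and the only one whose ecotypes parted by over 2-fold. In IT it measured 0.667 FPKM warm, 1.76 at 1 week and 2.35 at 2 weeks. In SW it measured 0.511 FPKM warm, 4.97 at 1 week and 0.364 at 2 weeks. SW thus peaked at 1 week and was at its warm level again at 2 weeks, while IT stood highest at 2 weeks. The FPKM ratio of the highest to the lowest group was 13.6, both of them SW groups.

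On the log2 scale of FPKM + 1 the cold response of MYB15 was 0.73 and 1.01 in IT and 1.98 and -0.15 in SW. Between 1 and 2 weeks SW was lower by a log2 ratio of -2.13, larger in size than 99.5% of all genes. It was the only 1 of the 9 past 2-fold there, against 3.29% of all genes in that comparison, and 0 of 9 were in IT, also against 3.29%. SW against IT, 0 of 9 differed by 2-fold in the warm (6.90% of all genes), and MYB15 alone did at 1 week (1.11, against 8.51% of all genes) and at 2 weeks (-1.30, against 11.1%). The SW minus IT difference of the response was 1.25 at 1 week and -1.15 at 2 weeks. In each of these differences MYB15 was the 1 of 9 past 2-fold, against 7.32% and 7.28% of all genes. All MYB15 values lay below 5 FPKM, at percentiles 4.6 to 31.3 of the kept genes, so its ratios depend on the added 1. With 0.1 in its place the IT response at 1 week was 1.28. Reference-gene scaling took the IT response at 2 weeks to 0.87 and the ratio of SW to IT at 1 week to 0.94, both within 2-fold.

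Of genes linked to MYB15, PUB25 and PUB26 were on the lower side in the cold and MYB13 on the higher side. PUB25 and PUB26, ubiquitin ligases that target MYB15, stood at 5.59 and 13.1 FPKM in IT warm, 2.47 and 4.57 at 1 week and 2.71 and 6.09 at 2 weeks. In SW they stood at 4.08 and 9.71 FPKM warm, 3.24 and 4.68 at 1 week and 3.16 and 5.31 at 2 weeks. PUB26 was lower in the cold by log2 -1.34 and -0.99 in IT and -0.91 and -0.76 in SW, and PUB25 by -0.92 and -0.83 in IT and -0.26 and -0.29 in SW. MYB13, a relative of MYB15, measured 5.24, 8.44 and 8.47 FPKM in IT and 5.84, 12.7 and 6.83 in SW. Like MYB15 it was highest in SW at 1 week and close to its warm level in SW at 2 weeks. MYB14, the other relative listed, stayed below 1 FPKM in every group. It stood at 0.187, 0.255 and 0.172 FPKM in IT and 0.249, 0.700 and 0.294 in SW.

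The genes most like each regulator were sought by the root mean square difference of centred log2 profiles over the 6 groups, which share their libraries and scaling, among genes of at least 1 FPKM in every group. This was done for ICE2, OST1 and MYB15, the 3 regulators whose groups spanned 2-fold or more. Nearest to MYB15 were AT5G05600, an oxygenase-family gene (difference 0.12), the glutamate decarboxylase gene GAD4 (0.19) and the trehalase gene TRE1 (0.20), against a spread of 0.75 of MYB15 itself. AT5G05600 stood at 28.3 FPKM in SW at 1 week and 6.45 at 2 weeks. Nearest to OST1 were PAL2, a phenylalanine ammonia-lyase gene of phenylpropanoid synthesis (0.02), the FRIGIDA-like gene AT4G14900 (0.06) and AT2G25964 (0.06), against a spread of 0.54. PAL2 measured 52.3, 101 and 104 FPKM in IT and 49.6, 122 and 116 in SW. Nearest to ICE2 were AT4G01150, a thylakoid protein gene (0.03), the photosystem II assembly gene PSB27 (0.04) and AT5G63060 (0.07), against a spread of 0.33.

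Other regulators known to act on CBF genes or on these proteins were described as a list of 51, of which 49 reached 1 FPKM. Against warm, 5 were 2-fold higher and 8 lower in IT at 1 week, 7 and 2 in IT at 2 weeks, and 6 and 3 in SW at both times. The medians were -0.10, -0.05, -0.09 and -0.02. Shares past 2-fold of 13 or 9 in 49 stood beside the background of 17.9%, 13.5%, 14.0% and 14.0%. In the second week 0 of 49 differed by 2-fold in IT and 1 (ZAT12, lower) in SW, against 3.29% of all genes in each ecotype.

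Clock and light genes were past 2-fold in part. Of 11 genes, 3 were 2-fold higher and 1 lower in IT at 1 week, and 4 and 1 in IT at 2 weeks and in SW at both times, where 17.9%, 13.5%, 14.0% and 14.0% of all genes were past 2-fold in either direction. PRR5, a clock repressor gene, stood at 16.7 FPKM in IT warm and 145 at 1 week, and at 2.18 and 155 in SW. The morning clock gene CCA1 stood at 42.6 FPKM in IT warm and 161 at 1 week, and at 62.1 and 184 in SW. LHY, its close relative, stood at 12.3 and 49.0 FPKM in IT and 23.6 and 68.1 in SW. PIF4, a bHLH factor of warm growth, measured 60.2 FPKM in both warm groups, 16.0 in IT at 1 week and 14.6 in SW at 1 week. All samples were taken at the same hour of the day, so a shift in phase and a change in level cannot be told apart.

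Genes of ethylene signalling and protein modification were mostly within 2-fold, in both directions. EBF1, the F-box gene whose protein removes EIN3, stood at 33.1 FPKM in IT warm and 13.1 at 1 week, and at 27.2 and 12.9 in SW, and was the only 1 of 5 ethylene genes past 2-fold (lower, at 1 week in both ecotypes, against 7.91% of all genes in IT and 6.20% in SW). CTR1, a kinase that holds ethylene signalling off, was on the higher side within 2-fold (0.21 and 0.74 in IT, 0.54 and 0.53 in SW). In the protein modification list 2 of 7 were 2-fold lower in IT at 1 week (PUB26, and MPK3 with 151 FPKM warm and 73.2 in the cold), against 7.91% of all genes, and 0 in the other 3 comparisons of cold with warm. In the same list AT5G27930, a protein phosphatase gene, was on the lower side in IT (-0.51 and -0.60) and on the higher side in SW (0.71 and 0.83). MPK3 and MPK6 phosphorylate ICE1 and so mark it for breakdown, and MPK6 stayed within 2-fold (-0.56 and -0.16 in IT, -0.52 and -0.53 in SW). SIZ1, which stabilises ICE1 by attaching SUMO, was also within 2-fold (-0.78, -0.57, -0.60 and -0.80 in the same order). The 3 remaining CAMTA-type genes AT1G67310, AT4G16150 and AT3G16940 lay within 2-fold in all 4 comparisons, from -0.83 to 0.59.

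**Figure D4:**
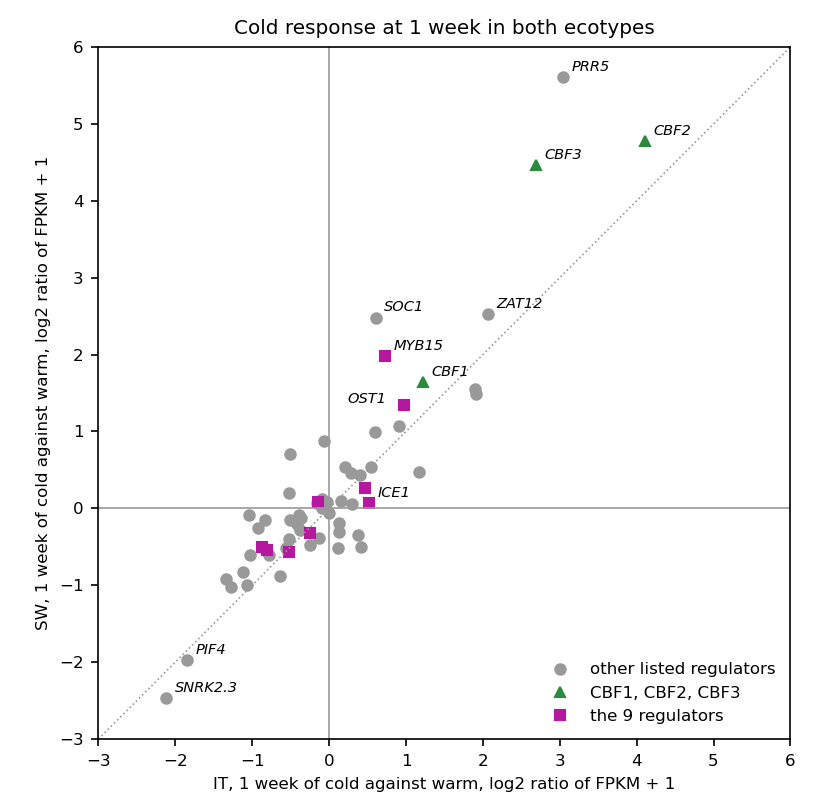
Log2 ratio of FPKM + 1 after 1 week of cold against warm, in IT (x axis) and SW (y axis), for the 9 regulators (squares), 49 other listed regulators (circles) and 3 CBF genes (triangles), each from single group values without error. The dotted line marks equal ratios. MYB15 (0.73 in IT and 1.98 in SW) lies above it with CBF3, SOC1 and PRR5, and 7 of the 9 regulators lie within 2-fold in both ecotypes.

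CBF2 and CBF3 had larger ratios of cold to warm than any of the 9. At 1 week CBF1 did so in IT but not in SW. At that time CBF2 had log2 ratios of 4.11 in IT and 4.78 in SW, and CBF3 of 2.696 and 4.46. Those of CBF1 were 1.22 and 1.64. Among the 9, the largest ratio at that time was 0.97 in IT, of OST1, and 1.98 in SW, of MYB15. Of the other listed regulators, PRR5 reached 3.05 in IT and 5.61 in SW. CBF1 stood at 0.123 FPKM in IT warm and 0.0422 in SW warm, so its ratios depend on the added 1. Without it, the SW ratio of FPKM at 1 week was 53.5 for CBF1 and 9.72 for MYB15. In IT the same ratio was 13.1 for CBF1, 2.64 for MYB15 and 2.05 for OST1. Between 1 and 2 weeks in SW, MYB15 went from 4.97 to 0.364 FPKM. Over the same time CBF1 went from 2.26 to 4.53 FPKM, CBF2 from 38.5 to 39.8 and CBF3 from 44.9 to 51.2. The log2 ratio of CBF1 was 0.76, within 2-fold but larger in size than 94.4% of all genes, and CBF2 and CBF3 were near level (0.05 and 0.18). In IT, where MYB15 stood at 1.76 and 2.35 FPKM, CBF1 stood at 1.62 and 2.32. A link between the levels of MYB15 and the CBF genes was not tested.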

How the data were processed

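The deposited table held FPKM values made by the authors, 1 per gene and group per the file headers, in 6 columns. TAIR10 is the build, and Cuffdiff, Cufflinks 2.1.1 and TopHat 1.4.1 are the tools, per the submitters' processing notes. No source used here gives their settings, how strand was treated or how 3 libraries became 1 value. The planned limma fit needed values per library and could not be run. Values were used unscaled as log2(FPKM + 1) for genes with at least 1 FPKM in at least 1 group (Python 3.11.15, pandas 2.3.3), in 9 comparisons of groups and 2 differences of responses. A gene listed at 0 in a compared group got no ratio. The authors' counts per library, and so the depth, are unknown. The counting step alone was tested on simulated data, which says nothing of the error of the deposited values.

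The 9 members, the list of 51 and the rules were chosen with earlier results of these data known. Named genes were the 9, CBF1 to CBF3, up to 3 genes per list and direction past 2-fold with at least 5 FPKM, and the 3 nearest profiles of each regulator spanning 2-fold. Markers, SNRK2.2, PUB25, MYB13, MYB14, EIL1, MPK6 and SIZ1 were added for their link to a regulator. Names, coordinates and sequences came from RefSeq TAIR10.1, whose build is an update of the TAIR10 named by the submitters. Reads of IT and SW that differ from the reference may align less well, which was not tested.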

Additional observations from a re-analysis of the deposited data

Results flagged for a closer look

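After 2 weeks of cold MYB15 was higher than warm in IT (log2 ratio 1.01) and near its warm level in SW (-0.15), and the opposite signs of these ratios drew attention. The SW minus IT difference of -1.15 was not tested, since each group has 1 value, and the SW value at 2 weeks and both warm values lay below 1 FPKM.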

How the results depend on the processing

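No paired analysis was possible because the table gives 1 value per group, so replicate numbers could not be used; leaving out single replicates could not be run for the same reason. Of 583 ratios of single regulators under 6 settings, 571 kept their side of 2-fold, 7 passed it and 5 no longer did. None past 2-fold changed sign. The filter at 5 FPKM (88 of these ratios) and the setting without a filter (99) leave every single ratio as it was, so these could not move. All moves came from the remaining settings. Reference-gene scaling moved most: it gave medians over all genes of -0.17, -0.20, -0.34 and -0.44 in the cold comparisons, where the deposited values gave -0.0023, 0.04, 0.03 and 0.01, and changed the sign of 16 small ratios.

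Counts of the 9 past 2-fold (0, 1, 2 and 1 in IT at 1 and 2 weeks and SW at 1 and 2 weeks) became as follows. With a pseudocount of 0.1 they were 2 in IT at both times. Over all kept genes that setting gave 2555 higher and 2212 lower in IT at 1 week, and 1881 and 1835 at 2 weeks. With a filter of 5 FPKM, which removes MYB15, they were 0 in IT at 2 weeks and 1 in SW at 1 week, and 0 in SW between the weeks, in SW against IT at 1 and 2 weeks and in both differences of responses. Of the 15443 genes kept at 5 FPKM, 1230 were higher and 1077 lower in IT at 2 weeks, and 1329 and 1061 in SW at 1 week. Between the weeks in SW 73 were higher and 433 lower. SW against IT they were 676 and 639 at 1 week and 622 and 1107 at 2 weeks. For the differences of responses they were 769 and 426, and 511 and 668. Upper-quartile scaling gave 0 in IT at 2 weeks, where 1117 of all kept genes were higher and 1482 lower. Reference-gene scaling gave 1 (lower) and 0 in IT, 1 (higher) and 2 (both lower) in SW, and 0 in SW against IT at 1 week. In that last comparison 653 of all kept genes were higher and 1059 lower, and those of the cold comparisons are given above. Quantile normalization gave 1 in IT at 1 week, where 1755 of all kept genes were higher and 1729 lower. A limit of 1.5-fold gave 4 and 3 in IT, 2 in SW at 2 weeks, 1 in IT between the weeks and 2 in SW against IT at 2 weeks. At that limit 39.7%, 33.2%, 33.9% and 32.6% of all genes were past it in the 4 cold comparisons. The shares were 13.2% and 8.95% between the weeks in IT and SW. SW against IT they were 16.6% in the warm, 20.7% at 1 week and 23.3% at 2 weeks. For the differences of responses they were 23.1% and 18.0%.

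For the list of 51, a pseudocount of 0.1 gave 15 in SW at 1 week (9 before) and 6 for the difference of responses at 1 week (3 before). Over all kept genes it gave 2041 higher and 1767 lower in SW at 1 week, and 1376 and 867 for that difference. Reference-gene scaling gave 14 in SW at 1 week, where 796 of all kept genes were higher and 2696 lower. At 1.5-fold the counts were 20 and 19 in IT, 18 and 18 in SW, 3 and 2 between the weeks in IT and SW, 6, 9 and 10 in SW against IT, and 12 and 9 for the differences of responses. The shares of all genes at that limit are those given above. The causes were not tested.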

Other observations

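ICE1 and ICE2 pair with the bHLH factors of the stomatal lineage. Of these partners, 2 of 3 (SPCH and MUTE) were 2-fold lower in SW than in IT at 1 week, against 3.95% of all genes. Both also stood lower in SW than in IT in the warm, within 2-fold. MUTE stood at or below 2.73 FPKM in every group, so its ratio depends on the added 1. SPCH, which starts the lineage, stood at 5.81, 6.36 and 5.17 FPKM in IT (warm, 1 and 2 weeks) and 4.12, 2.57 and 3.43 in SW. MUTE, which acts after it, stood at 1.81, 2.73 and 1.89 FPKM in IT and 1.42, 0.699 and 1.05 in SW. SW against IT, the log2 ratios at 1 week were -1.04 and -1.14, while FAMA, the last of the series, was at -0.31. All 3 lay within 2-fold of their warm level in both ecotypes.

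ZAT12 is a zinc finger gene of the early cold response. It was the 1 of 49 listed regulators 2-fold lower in SW at 2 weeks than at 1 week, against 2.88% of all genes. It measured 5.32, 25.4 and 35.5 FPKM in IT and 4.08, 28.3 and 12.2 in SW. In SW at 2 weeks it was still above its warm level, unlike MYB15. The SW minus IT difference of its log2 response was 0.47 at 1 week and -1.15 at 2 weeks. SOC1, a flowering activator reported to repress CBF genes, stood at 40.0 FPKM in IT warm against 4.07 in SW warm, and PRR5 at 16.7 against 2.18. Both were 2-fold or more lower in SW than in IT in the warm, as were 4.22% of all genes, and they were the 2 of 49 listed regulators that were.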
